A study of Mus musculus with 4 samples.

Results

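The 10 genes described here carry out MHC class I antigen presentation and were taken by symbol from 4 RNA-seq libraries of mouse bone marrow, with 47561 gene symbols in all. They are the light chain gene B2m, the classical heavy chain genes H2-K1 and H2-D1, the nonclassical heavy chain genes H2-T23 and H2-M3, the peptide transport and loading genes Tap1, Tap2 and Tapbp, the trimming enzyme gene Erap1 and the regulator gene Nlrc5. All 10 were found, and all 10 passed the filter on low values, as 13148 genes did. The libraries were made from sorted LSK cells, which are marrow cells without mature lineage markers that carry Sca-1 and c-Kit and include stem cells and early progenitors. Mice were C57BL/6, 12 weeks old and all carried a floxed Metrn gene, which encodes the secreted protein Meteorin. The 2 control mice are called Metrn f/f (wild type in the genotype label). The 2 Metrn cKO mice also carried LysM, named for a lysozyme gene active in macrophages, monocytes and neutrophils. The labels name no Cre, sex or batch for any mouse. The series asks how Meteorin of macrophages acts on stem and progenitor cells, and here the comparison was made for class I genes.

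Class I molecules display peptides from inside the cell to CD8 T cells and to NK cell receptors. A heavy chain pairs with B2m in the endoplasmic reticulum, the transporter made of Tap1 and Tap2 brings in peptides cut by the proteasome, Tapbp (tapasin) holds the empty heavy chain at the transporter, and Erap1 trims peptides to length. Nearly all nucleated cells carry class I. Nlrc5 is a transactivator that works with RFX, CREB and NF-Y factors at an upstream element of class I genes, and interferon raises the pathway.

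The start-site regions are shown first, because part of the members share that element. RefSeq windows of 300 bases (250 before and 50 after a start site, GRCm38.p6) were matched for 8 of the 10 members, with 9 windows, and not for Tap2 and Nlrc5. The letters TGACG (X2, bound by CREB factors) and ATTGG (Y box, bound by NF-Y) stood in the same orientation with 20 bases between them in B2m, H2-K1, H2-D1 and H2-M3. The stretches run 5′ to 3′ on each gene's strand, with the searched letters in capitals.
B2m: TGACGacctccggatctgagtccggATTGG
H2-K1: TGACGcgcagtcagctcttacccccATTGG
H2-D1: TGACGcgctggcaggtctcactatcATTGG
H2-M3: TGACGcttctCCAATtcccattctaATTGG
These are chr2:122147609-122147638 (plus strand), chr17:34000359-34000388 (minus strand), chr17:35262993-35263022 (plus strand) and chr17:37270188-37270217 (plus strand). Of the 20 bases between the motifs, H2-K1 and H2-D1 shared 13, H2-D1 and H2-M3 shared 9 and B2m and H2-K1 shared 3. In the H2-M3 stretch a second Y box reads on the other strand.

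The spaced pair was searched on both strands, with a spacing chosen after it had been seen in these genes. It stood in 31 of 32851 windows (0.0944%), which belong to 27 genes, 4 of them members. X2 alone stood in 20.8% of windows and the Y box alone in 37.4%. Tap1 held X2 and, upstream of it on the other strand, a Y box, Tapbp held the Y box, H2-T23 held the Y box on the other strand, and Erap1 held neither. The Tapbp window lay well inside the annotated gene, with matches at 33919230 and 33919313 and the gene start at 33915899. Bases around that gene start were therefore not searched. A kappa B motif (GGGANTNCC, 3.95% of windows) was found in H2-K1 and H2-D1. An interferon response element (GAAA and GAAA with any 2 bases between, 3.44% of windows) was found in B2m, H2-T23 and Erap1. Each search used fixed letters, so a site with other letters or spacing would be missed, and lack of a match is not lack of a site. No member window had different motifs overlapping, and the kappa B match reads on both strands at the same bases. The stretches upstream of a light chain and a heavy chain gene show the layout of the motifs, and the matches of H2-D1, H2-T23 and Erap1 follow with bases beside them.
B2m: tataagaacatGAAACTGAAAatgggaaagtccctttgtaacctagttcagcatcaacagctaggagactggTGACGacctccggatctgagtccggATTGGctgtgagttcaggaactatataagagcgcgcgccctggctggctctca
H2-K1: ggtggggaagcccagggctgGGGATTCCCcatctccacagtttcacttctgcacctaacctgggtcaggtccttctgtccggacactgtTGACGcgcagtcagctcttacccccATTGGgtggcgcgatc
H2-D1: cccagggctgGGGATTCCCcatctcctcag
H2-T23: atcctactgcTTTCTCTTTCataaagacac
Erap1: ccctgccggtccaccttcacTTTCACTTTC
The first is chr2:122147537-122147686 (plus strand) and the second chr17:34000348-34000477 (minus strand), each ending at the base before a RefSeq start site. The third is chr17:35262914-35262943 (plus strand), the fourth chr17:36032806-36032835 (minus strand) and the last chr13:74639829-74639858 (plus strand). A match is a run of letters, and no binding was measured.

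Values are FPKM, fragments scaled to transcript length and to the total of the library, and 4 values in a row are those of Metrn f/f 1 and 2 and then of Metrn cKO 1 and 2. The 4 libraries fell into pairs that cross the genotypes. Metrn itself had 29.3, 66.3, 42.3 and 36.7 FPKM with overlapping groups, and was highest in Metrn f/f 2. That library also had the largest FPKM total and the highest sums of macrophage and monocyte, class II, erythroid and T and NK cell genes. Neutrophil, dendritic cell and B and plasma cell sums were highest in Metrn cKO 1, and a link to the Metrn level was not tested. The sort gene Kit had 108, 24.8, 25.9 and 116 FPKM, and Ly6a, the gene of Sca-1, had 37.2, 83.2, 48.45 and 38.2. The 9 LSK and stem cell markers summed to 1045, 591, 461 and 1151 FPKM. Class II genes of antigen-presenting cells (7 of 7 tested) summed to 391, 2819, 2494 and 309 FPKM, and neutrophil genes (9 of 9) to 2574, 32560, 58460 and 2021. Each sum covers all genes of its list, and the brackets give how many of them were tested. The sums were 417, 1897, 1150 and 370.5 for macrophage and monocyte genes (10 of 10), 9.85, 26.9, 46.6 and 8.51 for dendritic cell genes (5 of 7) and 49.3, 429, 794 and 51.9 for B and plasma cell genes (9 of 9). Outside Metrn f/f 2 the macrophage and monocyte sum was mostly Ly6c2 (363, 869, 944 and 309 FPKM), highest in Metrn cKO 1. Every other gene of that list was highest in Metrn f/f 2, as C1qa was (6.76, 267, 44.2 and 7.5 FPKM). Erythroid genes (10 of 10), mostly globin genes, summed to 3068, 29490, 23920 and 2489, and T and NK cell genes (8 of 9), mostly Nkg7, to 151.5, 266, 188 and 146. Erythroid genes other than globins differed among themselves. Ahsp had 7.54, 306, 31.2 and 7.865 FPKM, Gata1 had 4.02, 17.8, 3.1 and 2.55, and Alas2 had 18.6, 79.8, 97.2 and 12.2. As deposited, the 2 highest libraries were Metrn f/f 2 and Metrn cKO 1 for all 7 lists of mature cells. As TPM, Nkg7 had 380.2, 368.8, 302.1 and 348.6 and was lowest in Metrn cKO 1. Cd3d was listed at 0 in Metrn f/f 1, and Ms4a1, Cd3e, Cd3g and Ncr1 in Metrn cKO 2.

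The light chain was the most abundant member. B2m, at positions 122147686 to 122153083 of chromosome 2, had 1120 and 2331 FPKM in the control mice and 1351 and 1194 in the Metrn cKO mice. Metrn f/f 2 stood highest, and the other 3 libraries lay close together. Among the 13148 tested genes B2m ranked 33, 48, 55 and 37, so its rank in Metrn f/f 2 was not above that in Metrn f/f 1.

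The classical heavy chains, which present to CD8 T cells, came next. H2-K1, at positions 33996017 to 34000347 of chromosome 17, had 905 and 1222 FPKM in the control mice and 728 and 913 in the Metrn cKO mice. H2-D1 (positions 35262730 to 35267499) had 624, 1012, 683 and 631 FPKM. Metrn f/f 2 was again highest for both, and the groups overlapped. The level of B2m over the sum of both heavy chains, a ratio that 1 factor per library cannot change, was 0.732, 1.04, 0.957 and 0.774. H2-D1 had 68.95%, 82.8%, 93.9% and 69.1% of the H2-K1 level, so Metrn f/f 2 and Metrn cKO 1 stood above the other pair in both ratios. Centring on transcript length, described further on, acts on each gene and gives B2m a lower level relative to both heavy chains in Metrn f/f 2 than in Metrn f/f 1.

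The nonclassical heavy chains were lower. H2-T23, the Qa-1 heavy chain whose product is read by NK cell receptors (positions 36029773 to 36032855), had 142, 259, 140 and 157 FPKM. H2-M3, which presents bacterial peptides that start with formylmethionine (positions 37270220 to 37274484), had 15.0, 26.4, 16.4 and 20.1 FPKM. Metrn f/f 2 was highest in both genes, and the lowest was Metrn cKO 1 for H2-T23 and Metrn f/f 1 for H2-M3. H2-T23 had 10.4% to 13.2% of the B2m level, and H2-M3 had 1.13% to 1.68%.

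The peptide transport and loading genes had another order of libraries. Tap1 (positions 34187553 to 34197225) had 87.7 and 54.5 FPKM in the control mice and 58.7 and 88.9 in the Metrn cKO mice. Tap2 (positions 34203527 to 34216321) had 121, 73.7, 76.3 and 123 FPKM. Metrn f/f 2 and Metrn cKO 1 were the low pair, 1 of each genotype. The ratio of Tap1 to Tap2, the subunits of 1 transporter, lay between 0.723 and 0.770 in the 4 libraries. Tapbp (positions 33915899 to 33929292) had 74.7, 59.8, 64.7 and 71.4 FPKM, and its highest value was 1.25 times its lowest, the smallest such fold among the members.

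Erap1 and Nlrc5 had the same low pair of libraries with wider differences. Erap1, at positions 74639568 to 74693201 of chromosome 13, had 29.6 and 13.4 FPKM in the control mice and 15.4 and 29.2 in the Metrn cKO mice. Nlrc5, at positions 94434356 to 94527272 of chromosome 8, had 18.8 and 3.76 FPKM in the control mice and 6.19 and 18.0 in the Metrn cKO mice. Its highest library was 4.99 times its lowest. Among tested genes Nlrc5 ranked 4243, 8888, 7774 and 4515.

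**Figure D1:**
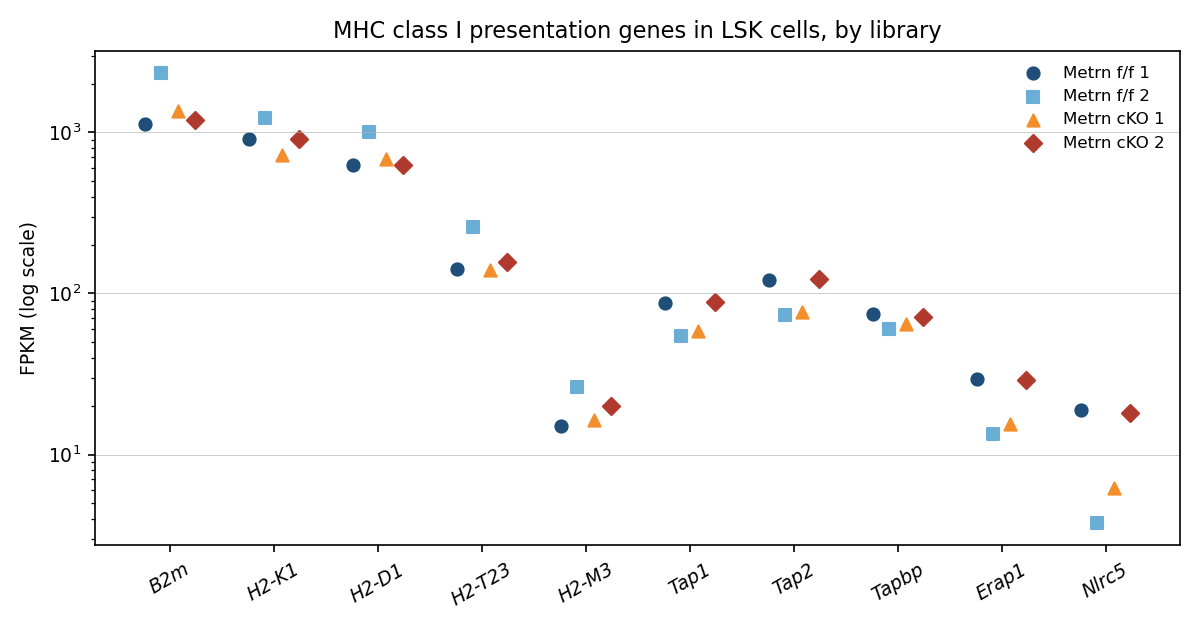
FPKM (log scale) of the 10 class I genes in each of the 4 libraries, 1 point per library. B2m and the heavy chains are highest in Metrn f/f 2 (2331 FPKM for B2m), while Tap1, Tap2, Tapbp, Erap1 and Nlrc5 are lowest there (3.76 FPKM for Nlrc5).

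Over the 4 libraries the mean level fell from B2m (1499 ± 563 FPKM, SD) through H2-K1 (942 ± 205), H2-D1 (738 ± 185), H2-T23 (174.5 ± 56.6), Tap2 (98.4 ± 27.1), Tap1 (72.5 ± 18.4), Tapbp (67.6 ± 6.69), Erap1 (21.9 ± 8.71) and H2-M3 (19.5 ± 5.08) to Nlrc5 (11.7 ± 7.82). Each of the first 5 genes exceeded the next in every library, and so did Tapbp. Tap1 exceeded Tapbp in 2 of the 4 libraries, Erap1 exceeded H2-M3 in 2 and H2-M3 exceeded Nlrc5 in 3, so the order of those neighbours was not fixed.

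No member passed the test between genotypes, made by limma on log2(FPKM + 1) across all 13148 genes. By limma 0 members had an adjusted p under 0.05, and 0 of all tested genes did (0%). Without adjustment 39 genes had a limma p under 0.05 (8 higher and 31 lower in Metrn cKO), and 0 of them were members. Members had unadjusted limma p from 0.48 to 0.95 and adjusted p of 1.00. In no member did the groups stay apart. Among all tested genes 6.31% had both values of the Metrn cKO mice above those of the control mice, and 5.73% had both below. Such p-values do not rest on the spread of a gene between these 4 mice alone. For each gene limma draws the variance toward that of genes of similar level, and the SE and intervals share this. An exact permutation test of 2 mice against 2 cannot give a p under 0.33.

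B2m had a mean of 1725 ± 857 FPKM in control mice and 1273 ± 111 in Metrn cKO mice (SD, n = 2 per genotype). Its log2 fold change, Metrn cKO over control, was -0.35 (SE 0.84), and was -0.0961 by quantile normalization and -0.0192 with centring on transcript length. The heavy chain genes had log2 fold changes of -0.37 for H2-K1 (SE 0.68), -0.28 for H2-D1 (SE 0.64), -0.36 for H2-T23 (SE 0.48) and -0.13 for H2-M3 (SE 0.45). Those of Tap1, Tap2, Tapbp and Erap1 were 0.06, 0.04, 0.02 and 0.09, with SE from 0.38 to 0.55. Nlrc5 had 11.3 ± 10.6 FPKM in control mice and 12.1 ± 8.36 in Metrn cKO mice, a log2 fold change of 0.27 (SE 0.82). The median over the 10 members was -0.05, beside 0.07 over all tested genes.

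The intervals leave room for large differences. The 95% interval of the log2 fold change ran from -2.35 to 1.66 for B2m and from -1.71 to 2.25 for Nlrc5. It lay within a 2-fold change in either direction for 1 member, Tapbp (-0.90 to 0.94). For Nlrc5 the log2 fold change was -0.76 with the second control library left out, 1.30 with the first control library left out and -0.43 with the second Metrn cKO library left out. For B2m it was -0.88 with the first control library left out and 0.18 with the second left out. H2-K1 alone kept its sign under every leave-one-out fit, between -0.58 and -0.15, without passing the test.

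**Figure D2:**
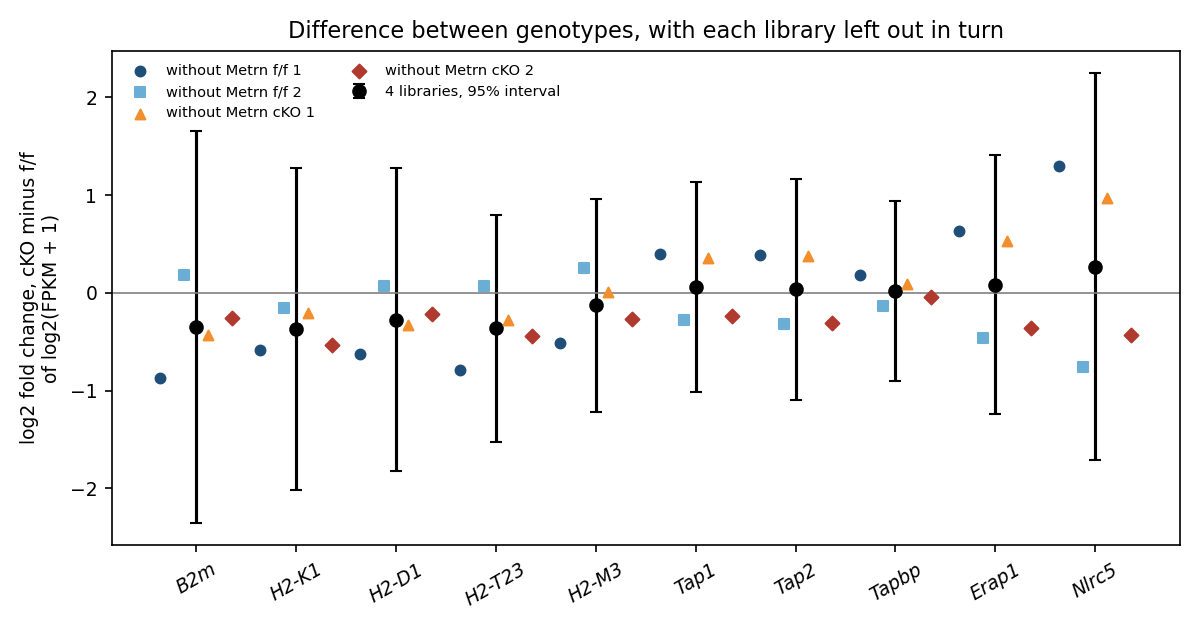
Log2 fold change of Metrn cKO minus Metrn f/f for each member, on the log2(FPKM + 1) scale. Black points are the estimate from 4 libraries with its 95% interval by limma, and coloured points are the estimate with 1 library left out. Every interval includes 0, and leaving out 1 library moves Nlrc5 from 0.27 to between -0.76 and 1.30.

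Between mice of the same genotype the members differed in 2 ways. On the deposited scale 5 members (B2m and the heavy chains) were highest in Metrn f/f 2, and the other 5 were lowest there. Metrn cKO 2 was close to Metrn f/f 1, and 9 of the 10 members differed by less than 0.2 on the log2 scale between them, the exception being H2-M3 at 0.40. Relative to B2m in the same library, Nlrc5 had 1.68%, 0.161%, 0.458% and 1.51%. Erap1 had 2.64%, 0.574%, 1.14% and 2.45% of the B2m level, and Tap2 had 10.8%, 3.16%, 5.65% and 10.3%. Every other member had a lower ratio to B2m in Metrn f/f 2 than in Metrn f/f 1, and a lower one in Metrn cKO 1 than in Metrn cKO 2. Between genotypes, 0 of 19 ratios tested had groups that stayed apart, and exact 2-sided permutation tests gave p of 0.667 to 1.00 (adjusted p = 1.00).

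The scale set between libraries bears on part of this pattern. The FPKM of all genes summed to 392717, 671802, 562401 and 412955, so values rescaled to equal sums (TPM) give another picture. The median log2 difference of all tested genes between Metrn f/f 2 and Metrn f/f 1 was -0.23 as deposited, -0.95 as TPM and 0.01 after median-of-ratios scaling. B2m was higher in Metrn f/f 2 than in Metrn f/f 1 under 4 of 6 scalings (by 0.28 as TPM), and was lower by quantile normalization (-0.22) and by centring on transcript length (-0.22). H2-K1 was higher as deposited (0.43), after median-of-ratios scaling (0.71) and after centring (0.05). It was lower as TPM (-0.34), with the 20 most abundant genes left out of the sum (-0.20) and by quantile normalization (-0.70). Tap1, Tap2 and Nlrc5 were lower in Metrn f/f 2 and Metrn cKO 1 than in the other library of the same genotype under all 6 scalings. For Nlrc5 the log2 difference between Metrn f/f 2 and Metrn f/f 1 was -2.89 as TPM and -0.65 after centring.

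**Figure D3:**
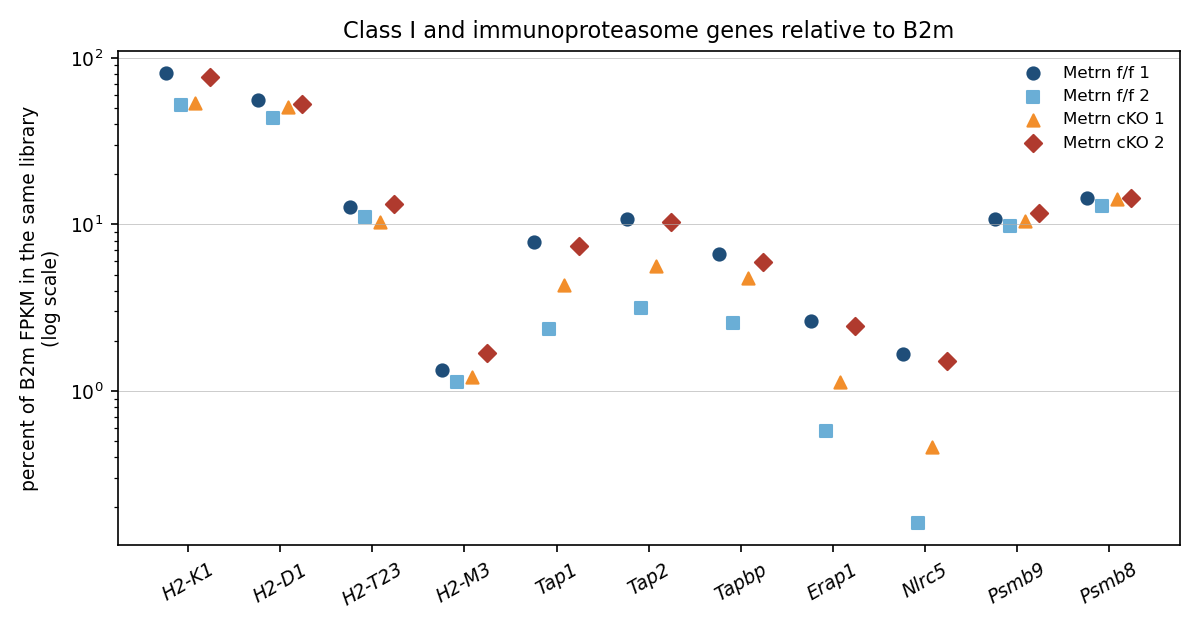
Level of each gene as a percentage of B2m FPKM in the same library (log scale), 1 point per library. Psmb9 ranges from 9.77% to 11.7% and Psmb8 from 12.9% to 14.4%, and Nlrc5 falls from 1.68% in Metrn f/f 1 to 0.161% in Metrn f/f 2. Centring on transcript length changes these relations. It gives log2 differences of Metrn f/f 2 from Metrn f/f 1 of -0.22 for B2m, 0.10 for Psmb9, 0.51 for Psmb8 and -0.65 for Nlrc5.

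Transcript length moved with the pattern. The longest coding transcript in GENCODE release M21 has 860 bases for B2m, 1438 to 2102 for the heavy chains, 2898 to 3442 for Tapbp, Tap1 and Tap2, 5644 for Erap1 and 7578 for Nlrc5. Across the 10 members, the log2 difference of Metrn f/f 2 from Metrn f/f 1 had a Spearman correlation with length of -0.98, and that of Metrn cKO 1 from Metrn f/f 1 of -0.90. Across the 10971 tested genes with a length the same correlations were -0.76 and -0.52, and that of Metrn cKO 2 from Metrn f/f 1 was -0.19, beside -0.67 across the 10 members. Genes share their libraries and are not independent replicates, so these correlations are descriptions. Genes of up to 1000 bases had a median log2 difference of 1.27 between Metrn f/f 2 and Metrn f/f 1, and genes above 6000 bases one of -1.49.

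Members were then read against genes of similar length, a step chosen after the data were seen. In each library the median deviation of tested genes in the same length class was subtracted, with more classes than the length figure shows. The log2 difference of Metrn f/f 2 from Metrn f/f 1 then became -0.22 for B2m, 0.05 for H2-K1, 0.06 for H2-T23, -0.03 for H2-M3 and 0.07 for Erap1. It was 0.65 for H2-D1, -0.47 for Tap1, -0.17 for Tap2, -0.11 for Tapbp and -0.65 for Nlrc5. Each gene was classed by its longest coding transcript (2102 bases for H2-D1), and which transcript was expressed was not tested. In Metrn cKO 1 the corresponding values were -0.71 for Nlrc5, -0.45 for Tap1, -0.41 for Tap2, -0.37 for H2-K1 and 0.16 for H2-D1. There is 1 library per mouse, so these differences have no error of their own.

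**Figure D4:**
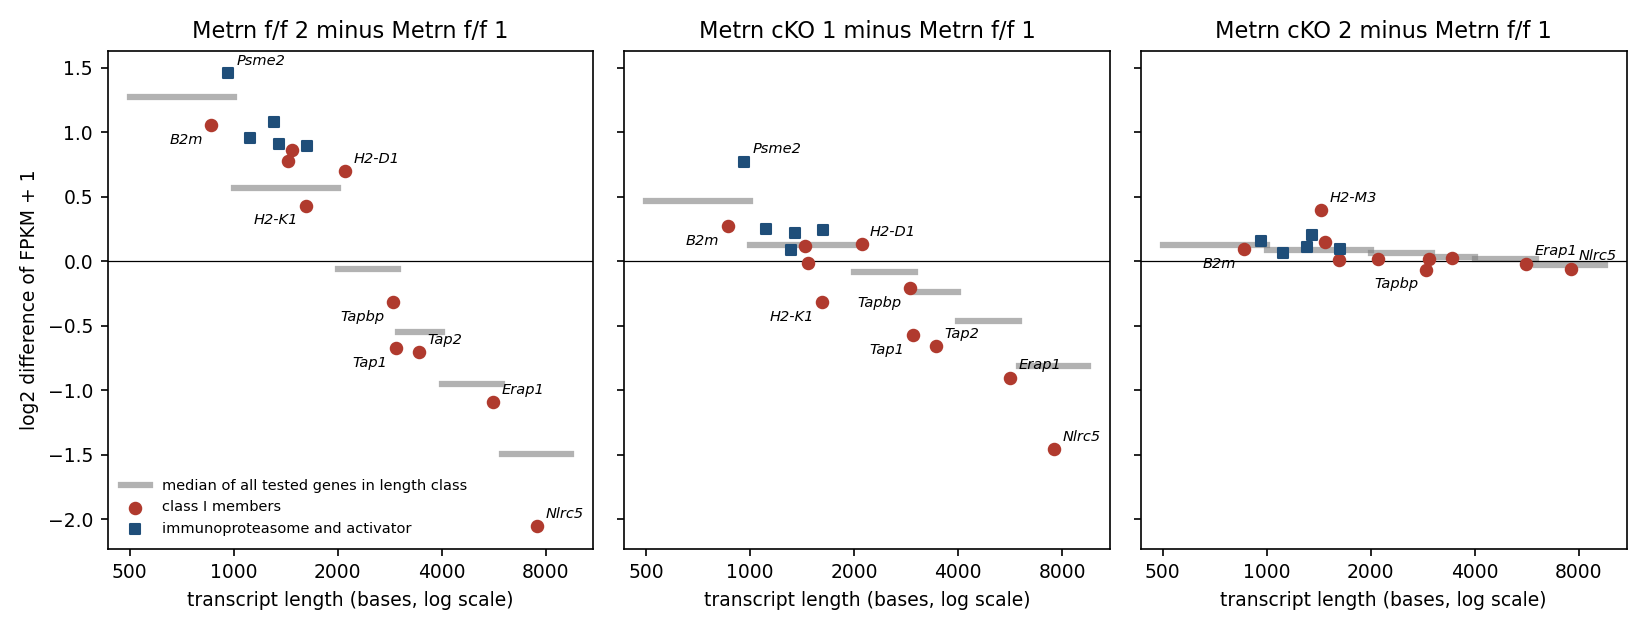
Log2 difference of each library from Metrn f/f 1 against transcript length (bases, log scale). Red circles are class I members, blue squares immunoproteasome and activator genes, and grey bars the median of all tested genes in a length class (the end classes are drawn from 500 and to 9500 bases). In Metrn f/f 2 the members run from 1.06 for B2m to -2.05 for Nlrc5, and in Metrn cKO 2 all but H2-M3 lie within 0.2 of 0.

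Sequence shared by related genes limits the heavy chain values. Of all 100-base windows of the transcript, 7.28% in H2-T23, 4.64% in H2-D1 and 0.107% in Tapbp occurred unchanged in transcripts of other genes, and 0% in the other 7 members. With 50-base windows the shares were 28.8% in H2-T23, 14.3% in H2-D1 and 8.79% in H2-K1, with H2-Q1 among the leading partners of each. How reads in such stretches were counted is not given in the sources used here, so the levels of these heavy chains are uncertain.

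The genes between and beside the Tap genes gave a local comparison. Psmb9, Tap1, Psmb8 and Tap2 lie in this order within 34335 bases of chromosome 17, and Psmb9 and Psmb8 encode immunoproteasome subunits that cut peptides for the transporter. Psmb9 had 121, 228, 141 and 139 FPKM, and Psmb8 had 161, 301, 191 and 172. Both were thus highest in Metrn f/f 2, where Tap1 and Tap2 were lowest. Tap1 had 72.65%, 23.95%, 41.6% and 63.9% of the Psmb9 level, and Tap2 had 74.9%, 24.5%, 39.9% and 71.4% of the Psmb8 level. The transcripts of Psmb9 and Psmb8 are 1352 and 1628 bases long. With centring on transcript length, the log2 difference of Metrn f/f 2 from Metrn f/f 1 was 0.10 for Psmb9 and 0.51 for Psmb8. It was -0.47 for Tap1 and -0.17 for Tap2. The gene models of Psmb9 and Tap1 overlap by 212 bases on opposite strands, and without strand reads there cannot be assigned.

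Other genes of the pathway were described from 6 lists, and in each of them 0 genes passed the test in either direction by limma. Of 13 tested class I relatives, 1 was lower in both Metrn cKO mice than in either control mouse and 0 were higher in both (5.73% and 6.31% of all tested genes), and the median log2 fold change was -0.19. That gene was H2-Q7, a Qa-2 heavy chain with 125, 134, 47.4 and 111 FPKM (log2 fold change -0.83, SE 0.51). H2-Q4, the most abundant of the list, had 191, 143, 94.6 and 210 FPKM. The sum of H2-Q4, H2-Q6 and H2-Q7 was 26.02%, 14.8%, 12.6% and 26.1% of the sum of the classical heavy chains, lower in Metrn f/f 2 and Metrn cKO 1. With 50-base windows H2-Q7 and H2-Q6 were among the leading partners of H2-D1. Shared windows were counted for the members alone, so the levels of these H2-Q genes are uncertain too. The neonatal Fc receptor gene Fcgrt had 6.64, 27.9, 9.61 and 9.97 FPKM, and the lipid-presenting Cd1d1 had 23.7, 18.4, 12.9 and 27.1.

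Loading chaperones had a median log2 fold change of -0.15 over 7 genes. Calr, the calreticulin of the loading complex, had 608, 514, 512 and 492 FPKM and was the 1 gene of the list with both Metrn cKO mice lower, as 5.73% of all tested genes were (log2 fold change -0.15, SE 0.56). Hspa5, a general chaperone of the endoplasmic reticulum, had 200.4, 265.5, 243 and 168.5 FPKM. All 6 genes of the immunoproteasome and its activator exceeded their Metrn f/f 1 level, as deposited, in both Metrn f/f 2 and Metrn cKO 1. Of all 13148 tested genes, 5556 did so for the first of these libraries and 5081 for the second. Values centred on transcript length were read for Psmb8, Psmb9, Psmb10, Psme1 and Psme2. Their log2 differences from Metrn f/f 1 were 0.51, 0.10, 0.28, 0.15 and 0.17 for Metrn f/f 2. For Metrn cKO 1 the differences were 0.19, -0.0017, -0.14, 0.03 and 0.29, so Psmb9 and Psmb10 did not exceed Metrn f/f 1. As TPM, Psmb9 and Psmb8 lay below Metrn f/f 1 in Metrn cKO 1 (log2 differences of -0.29 and -0.27) and above it in Metrn f/f 2 (0.14 and 0.12). Psme1, an activator subunit, had 191, 373, 228 and 200.2 FPKM, and the list median between genotypes was -0.30 (-0.12 with centring on transcript length). Of 7 peptidases, Npepps, a cytosolic aminopeptidase, was the 1 gene higher in both Metrn cKO mice (17.15, 7.89, 20.6 and 19.65 FPKM), where 6.31% of all tested genes were. Thop1, which destroys peptides in the cytosol, was the 1 gene lower in both (19.0, 21.04, 13.7 and 16.6 FPKM), where 5.73% of all tested genes were, and the list median was 0.23 (0.0365 with centring on transcript length). Blmh (34.1, 30.8, 35.9 and 33.7 FPKM) and Nrd1 (33.8, 18.6, 27.0 and 32.3 FPKM) were the most abundant peptidases.

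Of 19 regulators of class I promoters, 1 was lower in both Metrn cKO mice and 0 were higher in both, beside 5.73% and 6.31% of all tested genes. The list median was 0.29, and 0.0753 with centring on transcript length. That gene was Ifngr1, a chain of the interferon gamma receptor, at 79.3, 76.5, 75.4 and 70.4 FPKM (log2 fold change -0.10, SE 0.38). Irf1, an activator of class I promoters, had 51.8, 56.2, 45.2 and 56.8 FPKM. Irf8, a myeloid and dendritic factor, had 54.3, 53.0, 107 and 50.1, with Metrn cKO 1 alone high. Rfx5, a DNA-binding partner of Nlrc5, had 17.0, 6.09, 8.32 and 11.3 FPKM, lowest in Metrn f/f 2. The other RFX genes of the list did not share this order. Rfxap had 6.81, 14.3, 9.54 and 9.7 FPKM, highest in Metrn f/f 2, and Rfxank had 8.65, 9.185, 7.11 and 10.5, lowest in Metrn cKO 1. Of 15 interferon-stimulated genes, 1 (Mx1) was higher and 1 (Usp18) lower in both Metrn cKO mice, beside 6.31% and 5.73% of all tested genes, and the median was -0.05. Bst2 had 73.7, 218, 113 and 90.6 FPKM, and Irf7 had 16.9, 37.1, 24.1 and 25.1.

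Genes with the library profile most like that of a member were searched among 8864 genes. Likeness was the root mean square difference of centred log2(FPKM + 1) values over the 4 libraries. Nearest to B2m were Vps25 (0.0124), an endosomal sorting subunit with 52.6, 110, 64.1 and 55.2 FPKM, Plekhj1 (0.0165) and Hsbp1 (0.0187). Nearest to Nlrc5 were Mga (0.0129), a partner of Max with 9.48, 1.53, 2.89 and 9.26 FPKM, Erbin (0.0303) and Pitpnc1 (0.0329). The first 3 have transcripts of 1208 to 1260 bases and the others of 6329 to 13931 bases. Among the members themselves Tap1 and Tap2 were the closest pair, at 0.0361, and B2m and Nlrc5 the farthest apart, at 1.27.

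The class II genes were set beside the class I genes. Cd74, the class II invariant chain, had 14.4%, 41.0%, 74.65% and 9.47% of the B2m level, highest in Metrn cKO 1. Nlrc5 had 7.51, 1.91, 0.935 and 9.05 times the level of Ciita, its class II counterpart. The part of other cells, of transcript length and of library make-up in the class I values was not tested. In whole sorted populations fewer expressing cells and less RNA per cell cannot be told apart.

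**Figure D5:**
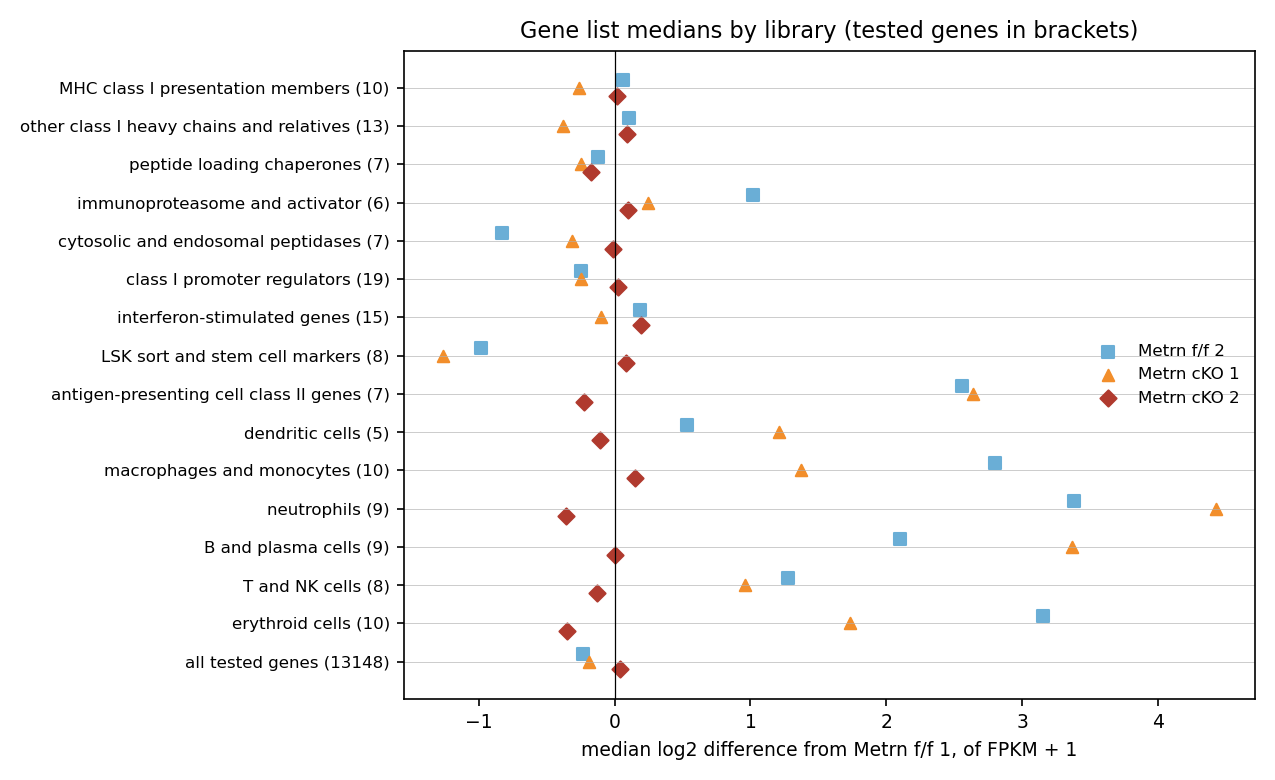
Median log2 difference of each library from Metrn f/f 1 over the tested genes of a list (number in brackets), on the log2(FPKM + 1) scale. The median over class I members, which differ in both directions, lies between -0.26 and 0.06, and that of class II genes reaches 2.64 and that of neutrophil genes 4.43 in Metrn cKO 1.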

How the data were processed

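Per the labels' protocols, LSK cells of 2 mice per genotype were sorted by FACS and total RNA was sequenced from standard Illumina libraries. Builds and tools named in the submitters' processing notes, without roles, are mm10, DESeq2 2.11.40.6, featureCounts 1.6.4, HISAT2 2.1, bcl2fastq 2.19 and cutadapt 1.16.5. The authors deposited FPKM, normalized to transcript length and library total, as 1 value per gene symbol and library. This unit was inferred from the values (decimals, none negative, unequal sums), since the file headers give none. The sources used here give neither read totals nor the strand setting.

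The 13148 genes that reached 1 FPKM in 2 or more libraries were fitted by limma 3.58.1 in R 4.3.3 on log2(FPKM + 1) with an intensity trend, 2-sided, with Benjamini-Hochberg adjustment over all of them and a threshold of 0.05. The fit was tested on simulated data. This scale understates fold changes of low genes.

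Lengths and coordinates come from GENCODE release M21 (GRCm38, called mm10), with a length for 83.4% of tested genes, and promoter windows from RefSeq on GRCm38.p6. A planned comparison of protein sequences was not made, and shared transcript windows were counted instead.

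The members and lists were chosen with earlier results of these data known. The rule for named genes takes the members, the 2 most abundant genes of each pathway list and the 3 nearest profiles of B2m and Nlrc5. Outside it, picked with values in view, are the genes whose groups stayed apart, Irf1, Rfx5, Rfxap, Rfxank, Fcgrt, Cd1d1, Psmb9, Psmb10, Psme2, H2-Q6, Ciita and the single markers. Alternatives were other scalings, pseudocounts and filters, a replicate block and leaving out each library.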

Additional observations from a re-analysis of the deposited data

How the results depend on the processing

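Counts of calls, member log2 fold changes and list medians were recomputed under 14 alternatives, of which length-class centring and a crossed block were chosen after seeing the data. No member passed the test under any of them. The count over all genes was 0 in the main comparison and, with 1 library left out, from 0 to 34 (5 without Metrn cKO 1, 34 without Metrn cKO 2). With the replicate number as a block 4 genes passed and with the crossed replicate block 102, and the block changed no other call of a member. In the labels same-numbered libraries have only the number in common, and whether they share a batch is not stated. Their deviations from the group means had a correlation of -0.71 over genes. With 2 libraries per genotype the crossed pairs must then have 0.71, so this restates the crossed pattern. The cause of the counts under each block was not tested.

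Of 140 member values 24 changed sign. With length-class centring these were H2-M3 (0.098), Tap1 (-0.0072), Tap2 (-0.12), Tapbp (-0.047), Erap1 (-0.20) and Nlrc5 (-0.049). After median-of-ratios scaling they were Tap2 (-0.023) and Tapbp (-0.036), and with the 20 most abundant genes left out H2-M3 (0.0044). With 1 library left out, log2 fold changes ranged from -0.88 to 0.18 for B2m, -0.62 to 0.0725 for H2-D1, -0.79 to 0.0693 for H2-T23, -0.52 to 0.26 for H2-M3, -0.28 to 0.40 for Tap1, -0.32 to 0.39 for Tap2, -0.14 to 0.18 for Tapbp, -0.46 to 0.63 for Erap1 and -0.76 to 1.30 for Nlrc5. In the same leave-one-out fits the list medians ranged from -0.29 to 0.0509 for the members and -0.49 to 0.0125 for other class I relatives. The ranges were -0.19 to -0.0659 for chaperones, -0.85 to 0.18 for the immunoproteasome and -0.19 to 0.64 for peptidases. They were -0.0582 to 0.48 for regulators and -0.24 to 0.14 for interferon-stimulated genes. With the 20 most abundant genes left out, the member median was 0.0819. The chaperone median of -0.15 became -0.0624 as TPM, -0.017 with the 20 most abundant genes left out and -0.0097 by quantile normalization. A lone library of a genotype is assumed to vary like the other group. Read depth is unknown, and for 1 of 10 members alone did the interval lie within 2-fold.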
